A study of Homo sapiens with 4 samples.

Results

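The genes described here encode the machinery that joins proteins into the cornified envelope of the epidermis. They were taken by symbol from the deposited tables, and all 9 were found among 19233 protein-coding rows of 44591 rows in all. Each of the 9 had at least 1 count in some library, as did 85.8% of protein-coding genes. They are the transglutaminases TGM1, TGM2, TGM3 and TGM5, the plakins PPL and EVPL, the cystatins CSTA and CST6, and corneodesmosin, CDSN. The libraries are 4 replicates of HaCaT, human epidermal keratinocytes that became immortal in culture, grown untreated in Dulbecco's modified Eagle medium with 12% fetal bovine serum per the labels. The series holds this 1 condition and no comparison group, so levels are compared between genes within a library and between the 4 libraries of the same group. HaCaT is a single cell line, so the replicates do not sample different donors.

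The cornified envelope is a sheet of cross-linked protein that replaces the plasma membrane of a keratinocyte at the end of differentiation. Transglutaminases are calcium-dependent enzymes that join glutamine and lysine side chains of neighbouring proteins. Periplakin and envoplakin are laid down first beneath the membrane as a scaffold, and involucrin, small proline-rich proteins, loricrin and cystatin A are then joined to it. Corneodesmosin is an adhesive glycoprotein secreted onto the outside of the desmosomes of these cells, where kallikrein proteases later cut it as cells are shed. Inherited loss of TGM1, TGM5, CSTA or CDSN causes scaling or peeling of the skin.

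The 4 transglutaminases share the stretch that holds the catalytic cysteine, which is shown for each to let their genes be compared by sequence. The sequences are spliced coding sequence from GENCODE release 29 on GRCh38, 63 bases each, and the capitals mark the codon of the catalytic cysteine.
TGM1: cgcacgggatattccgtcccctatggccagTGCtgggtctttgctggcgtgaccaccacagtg
TGM2: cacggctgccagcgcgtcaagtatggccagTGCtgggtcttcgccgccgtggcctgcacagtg
TGM3: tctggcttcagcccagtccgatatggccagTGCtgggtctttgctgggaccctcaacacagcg
TGM5: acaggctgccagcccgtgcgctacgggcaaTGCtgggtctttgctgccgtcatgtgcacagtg
The stretch crosses an exon junction in each gene, that of exons 7 and 8 in TGM1 (chr14:24258672-24259135, minus strand). It crosses the junction of exons 6 and 7 in TGM2 (chr20:38142198-38146777, minus strand), in TGM3 (chr20:2317185-2317351, plus strand) and in TGM5 (chr15:43240989-43252819, minus strand). Between pairs of these genes, 39 to 46 of the 63 bases were the same, and the longest run of identical bases was 26, between TGM1 and TGM3. Over whole transcripts, no run of 50 bases of TGM1, TGM3 or TGM5 was found in a transcript of another gene.

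The cystatins bind cysteine proteases through a conserved loop, shown for the pair because their levels are compared per length in each library. The capitals mark the codons of this loop in 75 bases of spliced coding sequence from the same release.
CSTA: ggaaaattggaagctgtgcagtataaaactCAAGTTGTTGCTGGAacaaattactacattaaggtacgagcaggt
CST6: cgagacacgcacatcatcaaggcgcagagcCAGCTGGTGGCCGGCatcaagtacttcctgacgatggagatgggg
The stretch of CSTA joins exons 2 and 3 (chr3:122337586-122341450, plus strand) and that of CST6 joins exons 1 and 2 (chr11:66012252-66012867, plus strand). They shared 33 of 75 bases, with no identical run longer than 4, and neither transcript shared a run of 50 bases with a transcript of another gene.

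The total count was 73082279 in replicate 1 and 17056035 to 19745170 in replicates 2 to 4. Replicate 1 stood apart from the rest. Protein-coding genes took 76.1% of its counts against 95.3% to 96.4%, and its Spearman correlation with the others across 12164 protein-coding genes was 0.754 to 0.780, against 0.944 to 0.967 among the others. Levels are therefore given as TPM over protein-coding genes. These are counts per gene length, scaled to 1000000 over the protein-coding rows of a library. For the 9 genes the levels or counts of each replicate are given. Means with n = 4 include replicate 1, which can set the order of genes. Each of 10 keratinocyte markers had a mean above 1 TPM, as did 63.3% of all protein-coding genes. The highest was KRT14, a keratin of basal keratinocytes, with 6847 ± 561 TPM (SD, n = 4). Against the mean of replicates 2 to 4, KRT5, ITGA6 and DSG3 were over 2-fold higher in replicate 1, and ITGB4 and SFN over 2-fold lower. That is 3 and 2 of the 10, where 17.4% and 20.1% of all genes above 1 TPM were. Summed levels of the markers of other cell types were 5.20 to 9.70 TPM for 7 fibroblast genes, 3.97 to 9.12 for 6 melanocyte genes, 13.5 to 73.1 for 7 immune genes and 0.956 to 2.36 for 5 endothelial genes. TYR, MS4A1, PECAM1 and KDR were at 0 counts in all 4 libraries. The simple epithelial keratins KRT7, KRT8, KRT18 and KRT19 were also high, and with KRT20 their summed level was 9361 to 10308 TPM, although the single genes differed between replicate 1 and the others.

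Of the 9 genes, 5 had a mean above 1 TPM, the limit taken as detected, and 63.3% of all protein-coding genes passed the same limit. Above 0.1 TPM the numbers were 8 of 9 and 74.4%, and above 10 TPM 4 of 9 and 46.5%. The members that passed were PPL, CSTA, EVPL, TGM1 and CST6. The order by mean log2(TPM + 1) was PPL, CSTA, EVPL, TGM1, CST6, TGM2, CDSN, TGM5 and TGM3. Of the neighbours in this order, TGM1 lay above CST6 by 3.47 ± 1.54 and CST6 above TGM2 by 1.13 ± 0.32 (SD of the differences within replicates, n = 4), both with the same sign in 4 of 4 replicates. The other 6 neighbouring pairs differed by less than 1 SD. PPL was first of the 9 in replicates 2, 3 and 4, and CSTA was first in replicate 1. Over replicates 2 to 4 alone, CSTA and EVPL each had a mean log2(TPM + 1) of 5.81.

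**Figure D1:**
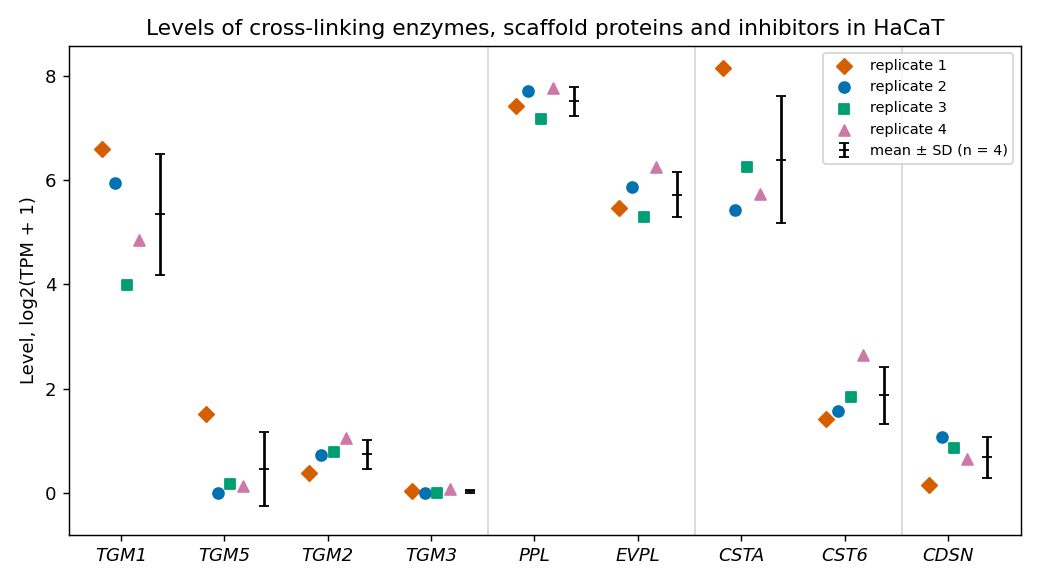
Level of each gene in each replicate as log2(TPM + 1) over protein-coding genes, with the mean ± SD over 4 replicates in black. PPL and EVPL lie close together between replicates, while TGM1 and CSTA spread over 2.62 and 2.72 units and TGM5 is set apart in replicate 1.

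TGM1, the membrane-anchored transglutaminase of keratinocytes and the enzyme mainly credited with envelope cross-linking, was by far the most abundant transglutaminase in HaCaT. Its level was 96.3, 60.6, 14.8 and 27.8 TPM in replicates 1 to 4, from 6500, 1119, 369 and 575 counts. The mean was 49.9 ± 36.5 TPM (SD, n = 4) with replicate 1 and 34.4 ± 23.6 TPM (SD, n = 3) without it. The level was highest in replicate 1 and lowest in replicate 3, with a ratio of 6.52 between them (95% Clopper-Pearson interval 5.87 to 7.26). Among replicates 2 to 4 alone, replicate 2 was 4.10 times replicate 3 (3.64 to 4.62), so TGM1 was uneven between these libraries too. A range over 2-fold among them was seen for 22.7% of detected genes. All such intervals cover counting error alone, because no molecular identifiers were counted. The gene lies at chr14:24718320-24732416 on the minus strand in the files, whose build the submitters' processing notes name as hg19.

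TGM2, the widely expressed tissue transglutaminase, was near the lower limit of what was called detected. It had 0.303, 0.664, 0.716 and 1.09 TPM in replicates 1 to 4, from 40, 24, 35 and 44 counts, with 0.693 ± 0.321 TPM as the mean (SD, n = 4). Replicate 1 was the lowest and replicate 4 the highest. The TGM2 row covers chr20:36755789-36794980 on the minus strand. In GENCODE release 29, 6.87% of the runs of 50 bases in its transcript are also found in transcripts of RPRD1B, so a small part of its reads could belong to either gene.

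TGM5, which acts in the upper epidermis and whose loss causes peeling of acral skin, was found almost entirely in replicate 1. It had 125 counts there and 0, 3 and 2 counts in replicates 2 to 4, that is, 1.86 TPM against 0, 0.121 and 0.0970. The level in replicate 1 was at least 11.4-fold higher than in replicate 2, taking a limit of 3 counts per library. It was 15.4 times that of replicate 3 (5.15 to 75.7) and 19.2 times that of replicate 4 (5.20 to 160). In replicates 2 to 4 TGM5 was not detectable above 3 counts, which correspond to 0.121 to 0.163 TPM. The row covers chr15:43524793-43559055 on the minus strand.

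TGM3, the epidermal transglutaminase of late differentiation and hair, had 2, 0, 0 and 1 counts in replicates 1 to 4. All 4 values were under the limit of 3 counts, which corresponds to 0.0461 to 0.169 TPM in these libraries, so the gene was not detectable at this depth. Its row covers chr20:2276613-2321725 on the plus strand.

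The family has further members, for which a list was set: TGM4, the prostate form, TGM6, TGM7, the A chain of factor XIII (F13A1), and EPB42, a family member without enzyme activity. None of these 5 had a mean above 1 TPM, where 63.3% of all protein-coding genes did. TGM4 was the highest at 0.671 ± 0.313 TPM (SD, n = 4), close to the level of TGM2, while TGM7 and F13A1 had 0 counts in all 4 libraries. Over the 9 family genes, TGM1 made up 97.1%, 97.0%, 91.0% and 94.6% of the summed TPM in replicates 1 to 4, or 94.9% ± 2.86 on average (SD, n = 4). The next largest share in replicate 1 was TGM5, with 1.87%, in replicate 2 TGM4, with 1.77%, and in replicates 3 and 4 TGM2, with 4.41% and 3.70%. TGM2 and TGM5 thus changed places: per length, TGM2 had 0.163 times the reads of TGM5 in replicate 1 (0.111 to 0.234), and 5.94 times (1.87 to 30.2) and 11.2 times (2.92 to 95.4) in replicates 3 and 4.

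**Figure D2:**
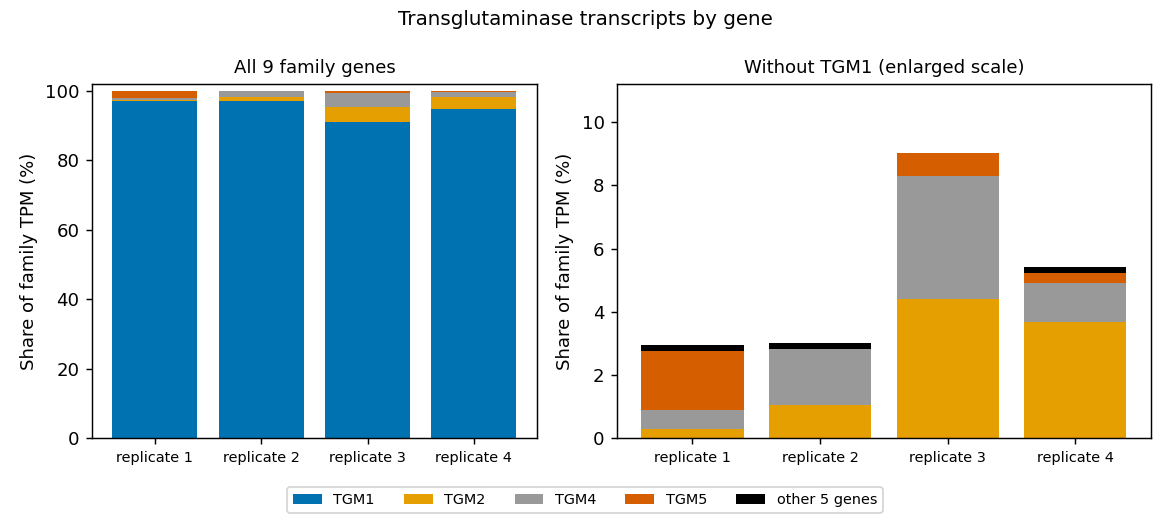
Share of the summed TPM of the 9 transglutaminase family genes taken by each gene in each replicate, in percent, for all genes (left) and without TGM1 on an enlarged scale (right). TGM1 takes 91.0% to 97.1%, and the small remainder is led by TGM5 in replicate 1, TGM4 in replicate 2 and TGM2 in replicates 3 and 4.

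Within replicates TGM1 exceeded TGM2 by 4.61 ± 1.37, TGM3 by 5.32 ± 1.16 and TGM5 by 4.89 ± 0.88 on the log2(TPM + 1) scale (SD, n = 4), each in 4 of 4 replicates. Each of these differences had p = 0.13 by an exact permutation test that flips the signs of the differences (two-sided), also after Benjamini-Hochberg adjustment over the 5 pairs of genes tested. That is the smallest p that 4 replicates allow, so no pair could pass 0.05. The test gives it whenever all 4 differences have the same sign, whatever their size or spread, and it covers only these 4 libraries. Differences on this scale understate the ratio of a low gene. By reads per length, TGM1 was 318 times TGM2 in replicate 1 (233 to 446), 91.3 times in replicate 2 (61.0 to 143), 20.6 times in replicate 3 (14.6 to 30.1) and 25.6 times in replicate 4 (18.8 to 35.6).

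PPL, which encodes periplakin, was the highest of the 9 genes by mean and the steadiest of those detected. Its level was 170, 207, 142 and 215 TPM in replicates 1 to 4, with 184 ± 33.8 TPM as the mean (SD, n = 4). The highest library was 1.51 times the lowest, and replicate 1 lay inside the range of the others. The mean stood at percentile 94.8 of the 16490 protein-coding genes with any count. The gene lies at chr16:4932508-4987136 on the minus strand.

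EVPL, which encodes envoplakin, the partner that pairs with periplakin, had 43.0, 57.4, 38.2 and 75.6 TPM in replicates 1 to 4, with 53.6 ± 16.8 TPM as the mean (SD, n = 4). Both plakins were lowest in replicate 3 and highest in replicate 4, and in both replicate 1 lay inside the range of the others. The row of EVPL covers chr17:74002926-74023533 on the minus strand, and 2.40% of the runs of 50 bases in its GENCODE transcript are also found in transcripts of 2 other annotated genes, EVPLL and AL353997.2.

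Per length, PPL had 3.97 times the reads of EVPL in replicate 1 (3.86 to 4.07), 3.61 times in replicate 2 (3.46 to 3.78), 3.73 times in replicate 3 (3.56 to 3.91) and 2.85 times in replicate 4 (2.74 to 2.96). The ratio was lowest in replicate 4, whose counting interval overlapped no other. On the log2(TPM + 1) scale PPL exceeded EVPL by 1.79 ± 0.20 (SD, n = 4), with p = 0.13 by the same exact test. This SD was the smallest among the 5 tested pairs, whose others ranged from 0.88 to 1.57. The ratio of PPL to TGM1, scaffold to enzyme, was 1.77 in replicate 1 and 3.42, 9.64 and 7.75 in replicates 2 to 4, and this spread lay mainly in TGM1, since PPL differed by no more than 1.51 times between libraries.

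CSTA, which encodes cystatin A, an inhibitor of cysteine proteases that is itself built into the envelope, varied most by the SD of log2(TPM + 1) among the 9 genes. Its level was 284, 42.1, 75.2 and 52.2 TPM in replicates 1 to 4, from 5704, 232, 560 and 322 counts. The mean was 113 ± 114 TPM (SD, n = 4) with replicate 1 and 56.5 ± 17 TPM (SD, n = 3) without it. Replicate 1 was 6.73 times replicate 2 (5.90 to 7.70), 3.77 times replicate 3 (3.45 to 4.12) and 5.43 times replicate 4 (4.85 to 6.10). CSTA lies at chr3:122044011-122060816 on the plus strand.

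CST6, which encodes cystatin M/E, an inhibitor of legumain and of cathepsins L and V, was low in every library. It had 1.69, 1.98, 2.56 and 5.29 TPM in replicates 1 to 4, from 25, 8, 14 and 24 counts, with 2.88 ± 1.65 TPM as the mean (SD, n = 4). Replicate 4 was above the others, at 3.13 times replicate 1 (1.71 to 5.71) and 2.07 times replicate 3 (1.03 to 4.32). Replicate 1 was the lowest, but its interval against replicate 2 included equality (0.855 times, 0.374 to 2.19). CST6 lies at chr11:65779462-65780976 on the plus strand.

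The pair of cystatins therefore stood far apart. Per length, CSTA had 168 times the reads of CST6 in replicate 1 (114 to 260), 21.3 times in replicate 2 (10.6 to 50), 29.4 times in replicate 3 (17.4 to 54.2) and 9.87 times in replicate 4 (6.51 to 15.6). On the log2(TPM + 1) scale the difference was 4.52 ± 1.57 (SD, n = 4), with p = 0.13 by the same exact test, and 3.79 without replicate 1. Against PPL, CSTA was at 1.66 times in replicate 1 and at 0.203, 0.528 and 0.242 times in replicates 2 to 4, so the first place of CSTA in replicate 1 rests on that library.

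**Figure D3:**
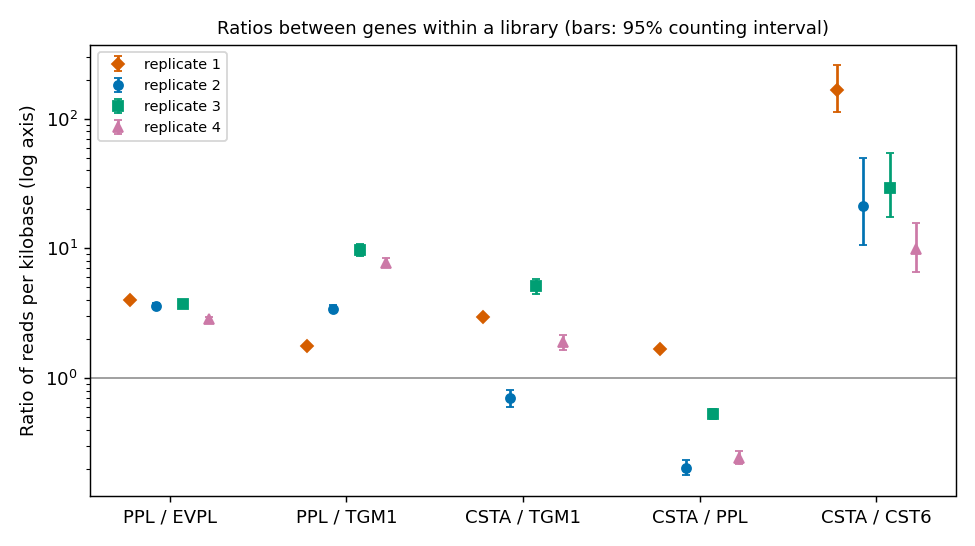
Ratio of reads per kilobase between pairs of genes within each library on a log axis, with 95% Clopper-Pearson counting intervals. The ratio of PPL to EVPL stays between 2.85 and 3.97, while the ratios that hold TGM1 or CSTA differ several-fold between libraries.

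CDSN was under the limit for detection. It had 7, 19, 19 and 11 counts in replicates 1 to 4, which gave 0.112, 1.11, 0.818 and 0.572 TPM and a mean of 0.652 ± 0.421 TPM (SD, n = 4). In replicate 1 it was 0.101 times the level of replicate 2 (0.0358 to 0.25), 0.136 times that of replicate 3 (0.0484 to 0.339) and 0.195 times that of replicate 4 (0.0641 to 0.551). The deepest library thus had the fewest CDSN reads. Its row covers chr6:31082865-31088252 on the minus strand and lies wholly inside PSORS1C1, a gene on the opposite strand with 114, 69, 55 and 35 counts in replicates 1 to 4. In GENCODE release 29, 93.9% of the runs of 50 bases in the CDSN transcript, 2350 of 2503, are also found in transcripts of PSORS1C1, so the overlap covers nearly the whole transcript. The strand setting of the counting is not given in the sources used here, so reads of CDSN and PSORS1C1 cannot be told apart. The part of PSORS1C1 reads in the CDSN values, and of CDSN reads left out of them, was not tested.

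Between libraries the 9 genes fell on both sides of replicate 1. TGM1, TGM5 and CSTA were higher in replicate 1 than in each of replicates 2 to 4, TGM2, CST6 and CDSN were lower than in each, and TGM3, PPL and EVPL lay between. Among all 16490 protein-coding genes with any count, 36.7% were above and 34.0% below each of the other libraries, so 3 of 9 on either side is near the background. Among the 5 detected members 2 were above and 1, CST6, below, against 40.2% and 37.4% of detected genes. On the log2(TPM + 1) scale replicate 1 minus the mean of replicates 2 to 4 was 2.35 for CSTA, 1.68 for TGM1 and 1.42 for TGM5, and between -0.71 for CDSN and 0.02 for TGM3 for the other 6 genes. Of the 5 detected genes, 2 were over 2-fold higher in replicate 1, TGM1 and CSTA, where 17.4% of all 12164 detected genes were, and 0 were over 2-fold lower, where 20.1% were. These calls rest on scaling over protein-coding genes: in TPM over all rows 0 were over 2-fold higher and 3 over 2-fold lower, with 0.17 for TGM1 and 0.82 for CSTA, while the median of all detected genes was -1.27. With all 9 genes, again over protein-coding genes, the counts were 3 and 0, against 13.4% and 15.1% of the genes with any count. The 0 depends on the pseudocount of 1, which shrinks differences of genes near 1 TPM. With a pseudocount of 0.1 TGM2 and CDSN passed 2-fold lower, at -1.17 and -2.10, and TGM5 was at 3.59. The median difference was -0.12 over the 5 detected members and 0.03 over all detected genes. Replicate 1 is a single library, so this contrast has no replicate check. Whether it was prepared and counted in the same way as the others is not given in the sources used here, so a difference in preparation and a difference between the cells cannot be told apart. In bulk RNA, in addition, more cells that express a gene and more RNA per cell cannot be told apart.

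GC content moved with this contrast. Across the 11889 detected genes with an annotated transcript, GC-rich genes were lower in replicate 1 (Spearman's rho between GC content and the difference, -0.51, given as a description across genes that share the same 4 libraries). CSTA is poor in GC, with 35.9% in its longest protein-coding transcript against a median of 49.1%, while TGM1 has 58.7%, TGM5 52.4%, PPL 59.5%, EVPL 65.0% and CST6 67.1%. Differences were also taken relative to the median of detected genes in the same of 20 bins of GC content. They were 2.29 for TGM1, 1.75 for TGM5 and 1.40 for CSTA, against 1.68, 1.42 and 2.35 without this step. TGM5 was not itself among the detected genes. Relative to the same medians the other differences were 0.41 for PPL, 0.53 for EVPL, 0.29 for CST6, 0.45 for TGM3, -0.04 for TGM2 and -0.14 for CDSN. This setting was chosen after seeing the data. Genes of the immune list did not move together. Of the 7 on that list 3 were detected, against 63.3% of all protein-coding genes. These 3, CD68, CD74 and CD14, were each over 2-fold lower in replicate 1, where 20.1% of all detected genes were. The list summed to 13.5 TPM in replicate 1 against 48.6 to 73.1. Of the others on that list, CD3E, LYZ and PTPRC had 13, 4 and 3 counts in replicate 1 and 0 in replicates 2 to 4, and MS4A1 had 0 throughout. The simple epithelial keratins moved in both directions: KRT7, KRT8 and KRT18 were over 2-fold lower in replicate 1, by differences of -1.08, -1.35 and -1.59, KRT19 was over 2-fold higher, with 1.21, and KRT20 had 129 counts there and 0 in the others. The part of GC content, of a difference between the cells and of the greater depth of replicate 1 in the values of TGM1, TGM5 and CSTA was not tested beyond this.

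**Figure D4:**
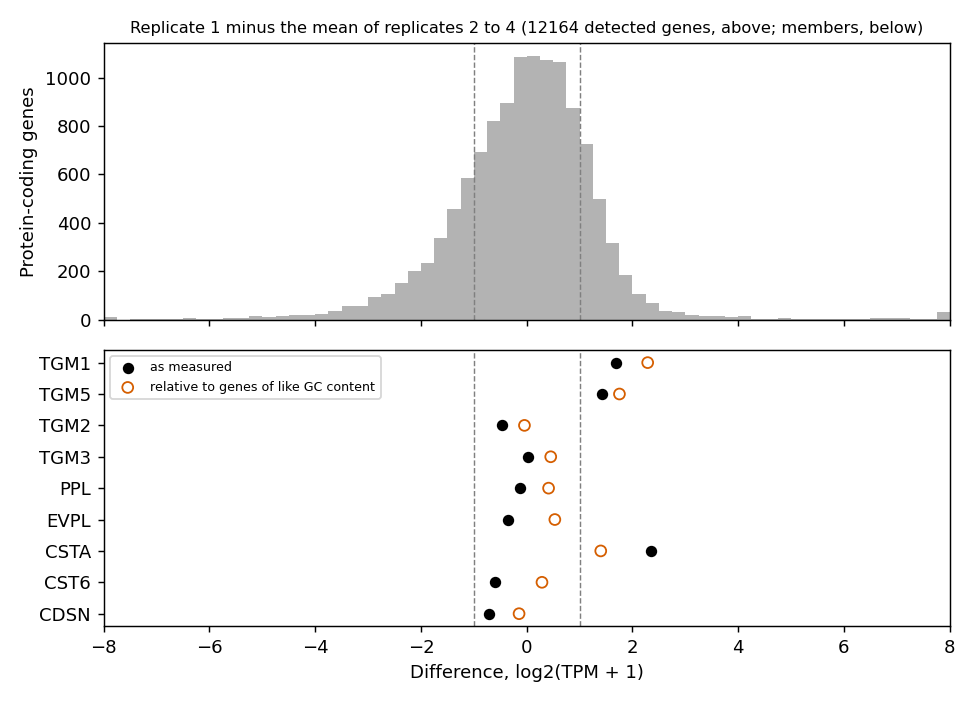
Replicate 1 minus the mean of replicates 2 to 4 in log2(TPM + 1), as a histogram of 12164 detected protein-coding genes in steps of 0.25, with genes beyond 8 counted in the end bars (above) and for each of the 9 genes (below), as measured and relative to genes of like GC content. Dashed lines mark 2-fold. TGM1, TGM5 and CSTA lie beyond the upper line in both versions. On this scale, with a pseudocount of 1, none of the 9 lies beyond the lower line.

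The spread between all 4 libraries was over 2-fold for TGM1, CSTA and CST6 among the 5 detected genes, and 59.1% of all detected genes had so wide a range. Without replicate 1 it was over 2-fold for TGM1 and CST6, against 22.7% of detected genes; over all 9 members the same 2 genes passed, against 17.3% of genes with any count. Over replicates 2 to 4 the range of TGM1 was 1.96 on the log2(TPM + 1) scale, wider than that of 98.2% of detected genes, and that of CST6, which rests on 8 to 24 counts, was 1.08. The range of PPL over the same libraries was 0.59, close to the median of all detected genes, 0.63, and that of EVPL was 0.97.

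The proteins that transglutaminases join were read from a list of 28 genes, of which 14 were detected, against 63.3% of all protein-coding genes. The highest were S100A11 with 1780 ± 699 TPM, ANXA1 with 1033 ± 240 TPM and S100A10 with 759 ± 141 TPM (SD, n = 4), which are made in many cell types. Of the 14, 6 were over 2-fold higher in replicate 1 and 1, S100A11, over 2-fold lower, and the median difference was 0.38. Among all detected genes the shares were 17.4% and 20.1%. Of these 6, KRT1 and LCE3E passed the limit on the mean through replicate 1. LCE3E had 3.91 TPM there against 0 to 1.10, and KRT1 is given below. The genes named next were chosen after their values were seen. Involucrin, IVL, the early rod-shaped substrate of TGM1, had 202 TPM in replicate 1 and 5.49, 4.06 and 14.9 in replicates 2 to 4. KRT1 and KRT10, the keratins of suprabasal cells, had 124 TPM against 0.219 to 0.545 and 229 TPM against 31.3 to 52.4. SPRR1B, a small proline-rich protein, had 71.6, 26.7, 3.59 and 4.77 TPM, which put replicate 1 first and replicate 2 second, as in TGM1. Other substrates had negative differences on the log2(TPM + 1) scale, where only that of S100A11 was over 2-fold. SPRR2A had 0.486, 3.33, 1.81 and 0.397 TPM in replicates 1 to 4, and hornerin, HRNR, had 1, 109, 19 and 41 counts. In TPM, HRNR was thus far lower in replicate 1, at 0.00427 against 0.219 to 1.70. Adding 1 before log2 held its difference to -0.78. Filaggrin, FLG, and SERPINB2 differed by -0.17 and -0.33 on the log2(TPM + 1) scale, with replicate 1 inside the range of the others. Loricrin, LOR, the main late substrate, had 7, 0, 0 and 3 counts, and LCE1A and LCE2B of the late envelope had 0 counts in all 4 libraries.

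Plakins other than PPL and EVPL, with proteins that bind them, made a list of 10 genes. Of these 9 were detected, against 63.3% of all protein-coding genes. The 3 highest were KRT8 with 2391 ± 946 TPM, KRT18 with 1118 ± 469 TPM and DSP, the desmosomal plakin desmoplakin, with 284 ± 189 TPM (SD, n = 4). The place of DSP rests on replicate 1, with 534 TPM. In replicates 2 to 4 it had 271, 75.2 and 255 TPM, below PLEC, another plakin, with 285, 120 and 279. Of the 9, 3 were over 2-fold higher in replicate 1 and 3 over 2-fold lower, against 17.4% and 20.1% of all detected genes. Per length DSP had 3.13 times the reads of PPL in replicate 1 and 1.31, 0.528 and 1.19 times in replicates 2 to 4, so the order of desmoplakin and periplakin turned in replicate 3. DSG1, the desmosomal cadherin of the upper epidermis and named after its values were seen, had 2107 counts in replicate 1 and 0 in replicates 2 to 4. It is 1 of the 3 higher genes and passed the limit on the mean through replicate 1 alone.

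Cystatins other than the pair above and lysosomal proteases made a list of 8 genes, all of them detected, against 63.3% of all protein-coding genes. Cathepsin D (CTSD), an aspartic protease and so not of the class that cystatins inhibit, had 1531 ± 469 TPM, the cysteine protease cathepsin B (CTSB) 444 ± 113 TPM and CST3, the secreted cystatin C, 352 ± 113 TPM (SD, n = 4). CST3 held 184 TPM in replicate 1, less than the 386 to 418 TPM of the other libraries. It exceeded CSTA in replicates 2 to 4 but not in replicate 1. Of the 8, 2 were over 2-fold higher in replicate 1 and 1, CST3, over 2-fold lower, which is near the 17.4% and 20.1% of all detected genes. Of the targets of CST6, CTSV had 58.0, 18.6, 16.5 and 21.2 TPM in replicates 1 to 4, CTSL 74.2, 95.6, 85.7 and 85.5 TPM, and LGMN 95.9, 81.2, 65.7 and 81.0 TPM. Each lay above CST6 in every library.

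The proteases that cut corneodesmosin, with their activators and inhibitors, made a list of 8 genes. Of these 7 were detected, against 63.3% of all protein-coding genes. ST14 had 412 ± 114 TPM, KLK5, which cuts CDSN, 312 ± 88.5 TPM and PRSS8 95.3 ± 33.3 TPM (SD, n = 4). KLK5 was thus abundant in every library, at 255 to 442 TPM, while its substrate CDSN was counted at or under 1.11 TPM. The values of CDSN have the limit given above, its overlap with PSORS1C1. Of the 7, 1 was over 2-fold higher in replicate 1, SPINK5, which encodes an inhibitor of KLK5, with 42.9 TPM against 1.48 to 4.16, and 1 was over 2-fold lower, KLK14, with 0.353 TPM against 2.23 to 25.1. Among all detected genes the shares were 17.4% and 20.1%.

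Regulators and enzymes of cornification made a list of 18 genes, 14 of them detected, against 63.3% of all protein-coding genes. Of the 14, 6 were over 2-fold higher in replicate 1 and 6 over 2-fold lower, against 17.4% and 20.1% of all detected genes. The limit on the mean admits genes through the libraries where they are high, here and among all genes. MAF, with 5.51 TPM in replicate 1 against 0.0647 to 0.273, and ABCA12, with 3.47 against 0.202 to 0.931, passed it through replicate 1. PRDM1 and ALOXE3, with 0.229 and 0.0119 TPM in replicate 1, passed it through the others. The highest were CEBPB with 150 ± 61.5 TPM, TP63, the master factor of the keratinocyte lineage, with 71.2 ± 25.5 TPM and NOTCH1 with 50.7 ± 27.7 TPM (SD, n = 4). TP63 was lowest in replicate 3, at 34.5 TPM against 73.4 to 90.7, and CEBPB was highest there, at 232 TPM. Genes of other lists, such as DSP and CDH1, were lowest in that library too. The share of all genes lowest in it is not given here.

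**Figure D5:**
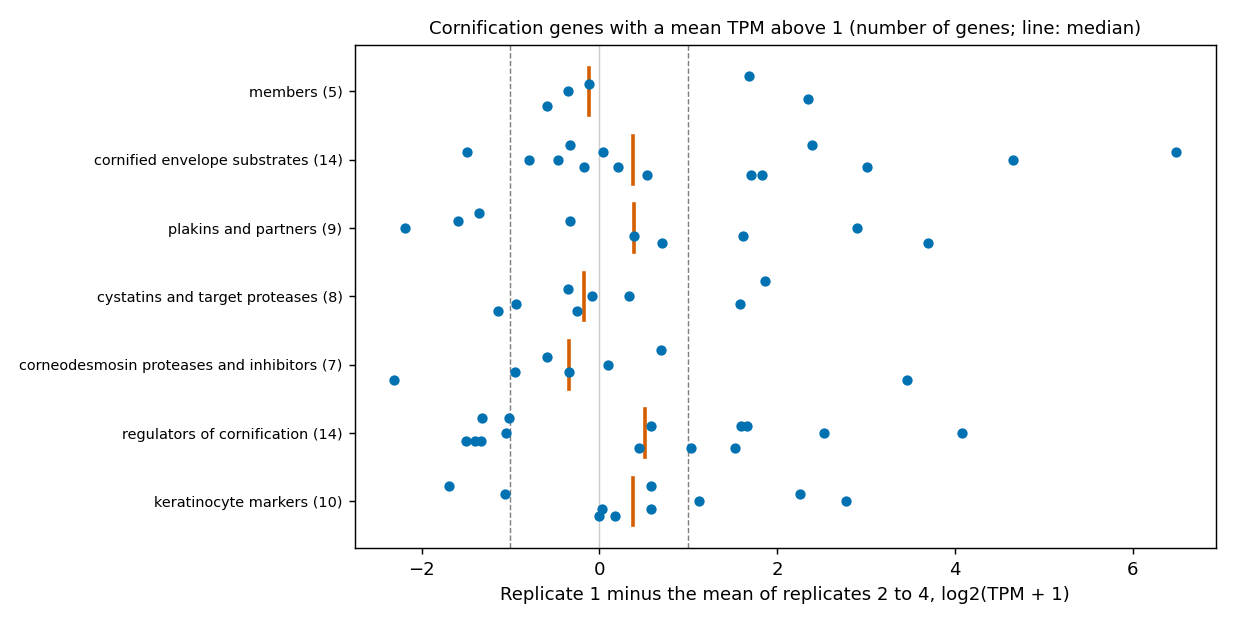
Replicate 1 minus the mean of replicates 2 to 4 in log2(TPM + 1) for genes with a mean above 1 TPM, 1 point a gene, for the detected members of the 9 and for each list named on the left with its number of detected genes. The orange line is the median of the list and dashed lines mark 2-fold; the lists of substrates, plakins, cystatins and regulators each have genes on both sides of 0.

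The genes whose levels over the 4 replicates were most like those of a member were found by the root mean square difference of log2(TPM + 1) after centring each gene on its mean, among 12163 other detected genes. For TGM1 the nearest were HES5, with 0.087, USH1G, with 0.15, and ZNF121, with 0.19, where the median gene was at 1.00. For CSTA they were KRT10, with 0.14, COX7B, with 0.17, and S100A4, with 0.20, against a median of 1.12. PPL was nearest to USP7, CLK2 and ELMOD3, at 0.017 to 0.022 and a median of 0.46, EVPL to CFD, CTSD and NEK9, at 0.019 to 0.033 and a median of 0.54, and CST6 to TBX6, CRELD2 and CCNI, at 0.049 to 0.094 and a median of 0.64. Among the members themselves EVPL was the 800th nearest gene to PPL, with 0.18, PPL was the 427th nearest to EVPL, and CSTA was only the 6455th nearest to TGM1, with 1.03. A profile over 4 libraries, 1 of which stands apart, is short, and close profiles are given as a description.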

How the data were processed

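Libraries were made from total RNA of 4 replicates of untreated HaCaT. The authors deposited raw read counts and a gene length for each of 44591 rows, with RPKM for replicates 1 and 2 and TPM for replicates 3 and 4. The submitters' processing notes name HISAT2, TopHat2, Bowtie2, HISAT and hg19, without roles. The counting program is not given in the sources used here. The deposited RPKM and TPM follow from the counts and lengths and were not used further. TPM was recomputed from the counts over protein-coding rows, without 4 rows of repeated symbols. A pseudocount of 1 was added before log2. There is 1 condition, so differential expression was not tested. The tests were exact sign-flip permutation tests over 5 pairs of genes, and ratios of counts have 95% Clopper-Pearson intervals. The smallest count taken as shown was 3, which is 0.0539 counts per 1000000 protein-coding counts in replicate 1 and 0.159 to 0.185 in the others. The steps were run on simulated data in which the 4 libraries shared the same levels apart from planted changes in replicate 1. That setting does not cover a library that stands apart across all genes, as replicate 1 does here. The members and lists were chosen with earlier results of these data known. The genes named were all members, the 3 highest of each pathway list with its genes at 0, and the 3 nearest in profile; ratios outside the 5 pairs and other genes named were chosen after their values were seen. Alternatives were TPM over all rows, counts scaled to the protein-coding total of a library without length, other scalings and annotated exon lengths. Further ones were a pseudocount of 0.1, other detection limits and leaving out each replicate. Tests ran in SciPy 1.17.1 and tables in pandas 2.3.3 and NumPy 2.4.6, under Python 3.11.15; figures were drawn with matplotlib 3.10.9.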

Additional observations from a re-analysis of the deposited data

Results flagged for a closer look

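Dixon's test at the 95% level was applied to 16 sets of 4 library values (members, sums and shares). It singled out a library in 3 sets, where chance alone gives 0.8, about 1 in 20. That rate holds for libraries that differ by chance only. Replicate 1 stood apart across all genes, with 40.2% of detected genes above and 37.4% below each other library. The share of all genes that the test would single out is not given here, so the 3 sets are not shown to exceed it. The sets are not independent of each other. All 3 were values of replicate 1. TGM5 had 1.86 TPM there against 0 to 0.121 in the others, a gap of 0.935 of the range. CSTA had 284 TPM against 42.1 to 75.2, a gap of 0.863 of the range. The summed level of CSTA and CST6 was 285 TPM against 44.1 to 77.8, which repeats the value of CSTA.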

How the results depend on the processing

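The summed level of the 9 genes was 405 TPM. It was 746 when counts were scaled to the protein-coding total of a library without length correction, and 556 with the union of annotated exons as length. It was 276 in TPM over all rows and 401 to 402 under the other scalings, and 341 to 449 with each replicate left out in turn. In TPM over all rows, 0 of the detected genes were over 2-fold higher in replicate 1 and 3 over 2-fold lower (PPL, EVPL and CST6), but the median of all detected genes also fell by 1.27 there. Relative to it the differences were 1.45 for TGM1, 1.84 for TGM5 and 2.10 for CSTA. They were 1.27 for TGM3, 0.61 for TGM2 and 0.53 for CDSN, and -0.36 for PPL, -0.54 for EVPL and -0.03 for CST6. Over protein-coding genes TGM2 and CDSN were at -0.51 and -0.74 relative to the median, so both changed sign. The pseudocount holds differences of low genes near 0 and the step then lifts them, so TGM2, TGM3, TGM5 and CDSN cannot be read from it. Before this step that of TGM3 changed sign, at -0.01. With a pseudocount of 0.1 the differences of TGM2 and CDSN in replicate 1 were -1.17 and -2.10, both past 2-fold lower. The number of members detected was 8 with a mean above 0.1 TPM and 9 with any count, 4 with a mean above 10, and 5 with any replicate left out. The 5 differences between genes kept their sign under every alternative run for them. The share of TGM1 in the family was 92.7% to 95.5% with other lengths and 94.2% to 96.2% with a replicate left out. No paired analysis was possible because there is only 1 group. Low counts limit TGM2, TGM3, TGM5, CST6 and CDSN, each with fewer than 50 counts in replicates 2 to 4.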
